A study of Arabidopsis thaliana with 15 samples.

Results

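The genes described here encode enzymes that break down the branched-chain amino acids leucine, isoleucine and valine in the mitochondria of Arabidopsis thaliana. They were taken by identifier from a list of 10 genes, drawn up with earlier results of these data known: BCAT2, 5 genes for subunits of the branched-chain ketoacid dehydrogenase, IVD, MCCA, MCCB and ETFQO. Of these, 9 were found among the 14190 genes counted, and AT5G09300, a gene for the alpha subunit of the dehydrogenase's first enzyme, is not analysed here. A filter on low counts left 8 of the 9 among the 10374 genes tested, and the remaining one, AT1G55510, is described by its counts.

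Breakdown starts with an aminotransferase, which takes the amino group off and leaves a branched ketoacid. The ketoacid dehydrogenase complex, built of a decarboxylase with alpha and beta subunits, an acyltransferase and a lipoamide dehydrogenase, then turns the ketoacid into an acyl-CoA. Isovaleryl-CoA dehydrogenase and methylcrotonoyl-CoA carboxylase carry the leucine branch further, and the electrons go through the electron transfer flavoprotein and its ubiquinone oxidoreductase into respiration. In plants this route is known as a source of electrons when sugars run short, and several of its genes were first found as dark-inducible (DIN) transcripts.

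Transcripts were counted by bulk MARS-seq, which reads the 3' ends of messenger RNA, in whole wild-type (Col-0) seedlings aged 2 weeks, with 3 libraries for each of 5 groups. All were grown on medium with sucrose. Treated seedlings were kept for 1 h in the dark in cercosporin at 0.1, 1, 10 or 100 µM, washed 3 times and lit at 30 µE for 30 min, whereas untreated controls stood in light throughout. Cercosporin is a fungal toxin that light activates to produce singlet oxygen and other reactive oxygen. Every comparison with the controls therefore also contains the dark step and the washes, while comparisons between doses do not. The labels do not say whether replicates were grown or treated apart, so the spread behind each p-value could be technical.

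Library totals ran from 834190 to 4554702 counts. The 3 libraries of 100 µM stood apart from the other 12, and they alone have a sample code with the digit 1, so that the dose and whatever goes with that digit cannot be told apart. Chloroplast transcripts took 0.205% to 0.248% of their counts against 0.358% to 0.688% elsewhere, and mitochondrial transcripts 0.312% to 0.438% against 0.771% to 1.45%. Markers of green tissue and of root were present in every group, as fits whole seedlings. The 6 green tissue markers summed to 18910 to 30640 CPM at 100 µM and 24650 to 33420 CPM in the controls, and the 7 root markers to 124 to 248 CPM and 124 to 177 CPM. RBCS1A took most of the green sum in the controls, and gene by gene RCA (log2 change 0.66), CA1 (0.56) and LHCA1 (0.60) rose at 100 µM against the controls, by edgeR adjusted p of 0.00353, 0.0185 and 0.00503, while 0 of the 6 fell. Of 5 root markers tested, PYK10 rose (2.27, edgeR adjusted p = 2.95e-05) and 0 fell. Their part in the results was not tested. CPM, used for all levels here, is a library's count scaled to its TMM-adjusted total. In bulk seedlings, fewer cells of a type and less RNA per cell cannot be told apart.

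The bases just upstream of 3 of the genes are shown because their transcripts stand for the patterns described below: AT1G21400 was the gene with the largest rise, BCAT2 is the entry step and IVD split the libraries of 100 µM. These are the 250 bases before the annotated gene start in RefSeq's TAIR10.1, found by locus tag, from 5' to 3' on the strand of the gene. Capitals mark each ACGT and each TATCCA, searched on both strands, and a TATCCA on the other strand reads TGGATA here.
AT1G21400 (chr1:7492963-7493212, plus strand): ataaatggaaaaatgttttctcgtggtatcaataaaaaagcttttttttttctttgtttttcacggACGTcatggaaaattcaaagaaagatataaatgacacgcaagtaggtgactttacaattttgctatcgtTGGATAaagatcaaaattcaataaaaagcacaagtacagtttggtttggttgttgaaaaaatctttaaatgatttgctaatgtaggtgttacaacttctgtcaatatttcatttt
BCAT2 (chr1:3287837-3288086, plus strand): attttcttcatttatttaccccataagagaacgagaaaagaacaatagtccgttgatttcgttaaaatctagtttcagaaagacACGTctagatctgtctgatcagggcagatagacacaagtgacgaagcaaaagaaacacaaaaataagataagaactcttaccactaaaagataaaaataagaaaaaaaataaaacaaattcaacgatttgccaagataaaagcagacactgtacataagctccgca
IVD (chr3:16625044-16625293, minus strand): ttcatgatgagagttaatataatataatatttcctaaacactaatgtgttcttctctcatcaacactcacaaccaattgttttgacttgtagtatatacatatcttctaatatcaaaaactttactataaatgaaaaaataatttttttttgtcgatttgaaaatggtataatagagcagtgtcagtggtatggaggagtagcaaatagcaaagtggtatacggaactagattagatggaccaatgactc

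ACGT is the core bound by bZIP transcription factors, among them those that act downstream of the energy-sensing kinase SnRK1. It occurred upstream of 4 of the 10 genes (BCAT2, AT1G21400, DIN4 and MCCB), and in 44.1% of the 27443 promoters of the same length. The full G-box CACGTG, which contains ACGT, was upstream of 0 of the 10 and in 6.49% of all. TATCCA, known from sugar starvation promoters of rice, occurred once, at AT1G21400 (13.6% of all), and ACTCAT, known from the proline dehydrogenase promoter, at AT1G55510 (12.3% of all). These matches are descriptions of letters in a window and not of binding.

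At 100 µM, transcripts of the aminotransferase, of the ketoacid dehydrogenase, of MCCA and of ETFQO stood above the controls, by 2.62-fold to 57.8-fold as fitted. IVD and MCCB did not pass the test, and their 3 libraries at this dose disagreed. Those of BCAT2 and DIN3, which passed, disagreed too, with replicate 1 inside the control range. By edgeR's quasi-likelihood test with Benjamini-Hochberg adjustment over all genes, BCAT2, AT1G21400, DIN4, DIN3, MCCA and ETFQO rose, 6 of the 8 tested, and 0 fell. Over all genes tested 18.1% rose and 14.6% fell in this comparison, 32.7% in either direction. The same filter over the other 12 libraries left out AT1G21400, DIN4 and ETFQO, which passed only through the libraries of 100 µM, where they were high, so that their place among the risers carries no weight as a count. DIN4 did pass in the separate fit over the 9 lower-dose libraries. Of the 5 genes that pass without the libraries of 100 µM, BCAT2, DIN3 and MCCA rose, and their median log2 change was 1.39. Over the 9616 genes of the series that pass in the same way, 13.4% rose and the median was -0.09.

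**Figure D1:**
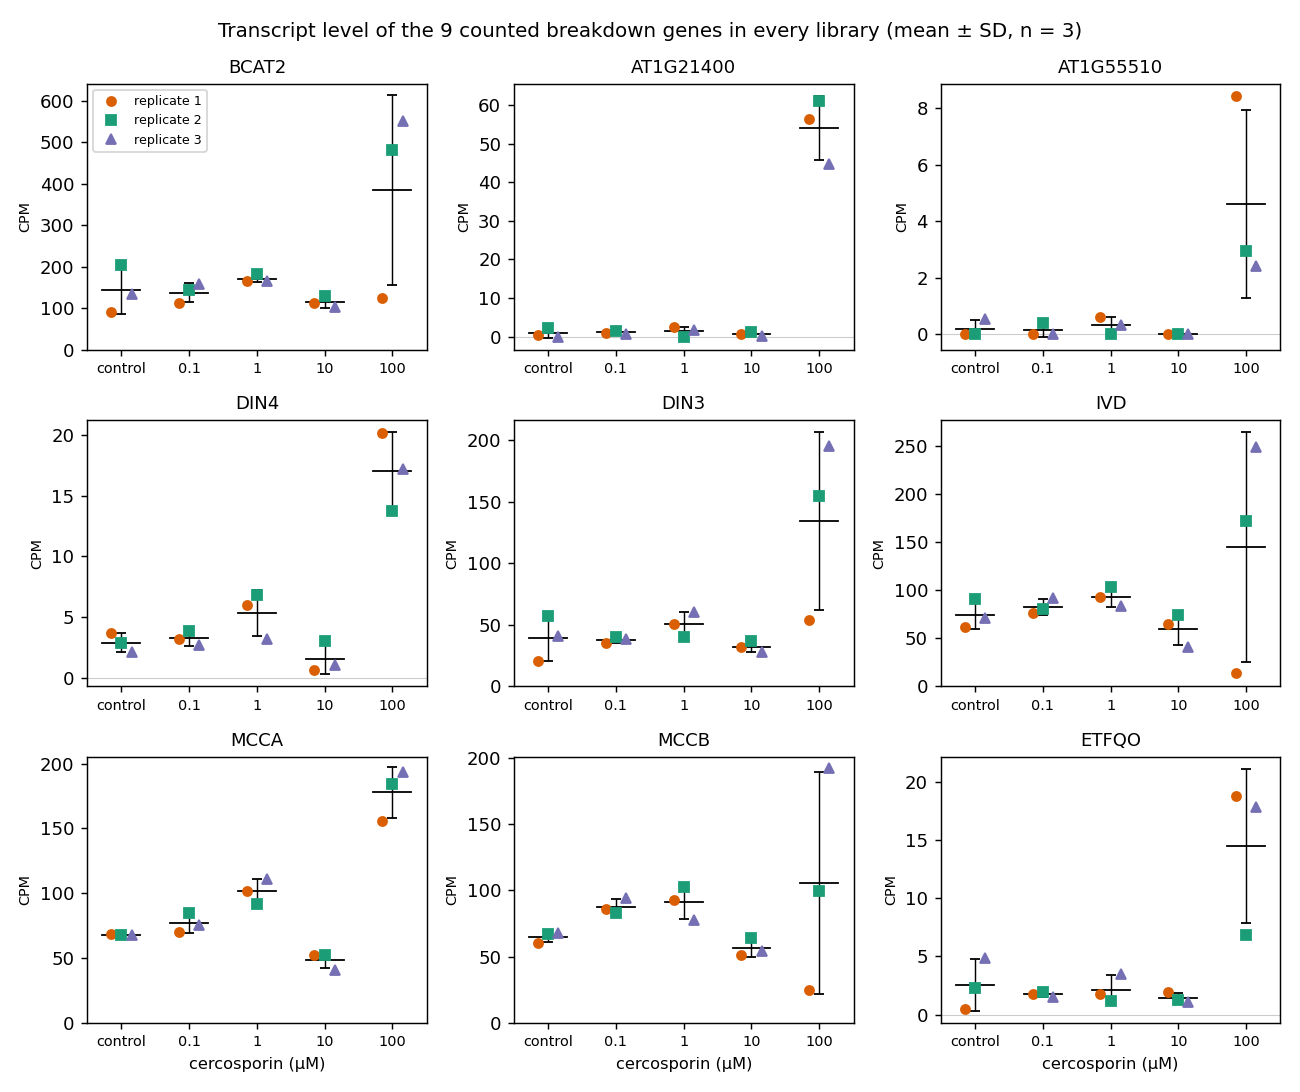
Transcript level (CPM, linear axis) of the 9 counted genes in each of the 15 libraries, by cercosporin dose in µM; points are libraries, bars the mean and whiskers the SD (n = 3). AT1G21400 lay at 2.39 CPM or less in the other 12 libraries and at 44.7 to 60.9 CPM at 100 µM, whereas IVD at 100 µM ran from 14.3 to 248 CPM.

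BCAT2 (AT1G10070), the mitochondrial branched-chain aminotransferase that starts breakdown, stood at 90.9, 205 and 135 CPM in the 3 controls. It was at 124, 480 and 552 CPM in replicates 1, 2 and 3 of 100 µM. Replicates 2 and 3 were far above every control, while replicate 1 lay inside the control range. On the log2 scale the change was 1.43 ± 0.37 (SE, n = 3 per group, edgeR adjusted p = 0.00625). With only both groups in the fit the change was 1.41 and the call was lost (adjusted p = 0.0776). Between 0.1 and 10 µM BCAT2 kept to 102 to 182 CPM with a median of 143 CPM over 9 libraries. Its 3' end overlaps that of AT1G10090 on the opposite strand by 161 bases, a gene with 23 counts in all at 100 µM, against 2285 for BCAT2.

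The decarboxylase of the ketoacid dehydrogenase showed the largest rise. AT1G21400, an alpha subunit gene, had 1, 4 and 0 counts in the controls, which is 0.461, 2.31 and 0 CPM. The top dose gave 87, 62 and 130 counts, or 56.5, 60.9 and 44.7 CPM. Transcripts of this gene were thus close to undetected in untreated seedlings and present in each library of the top dose, with no overlap. The gene passed the filter only through this dose, so the lack of overlap was partly set by the filter. The log2 change of AT1G21400 was 5.85 ± 0.54 (edgeR adjusted p = 3.74e-07). The size depends on control replicate 2, which held 4 of the 5 control counts, and without it the change was 7.45 (adjusted p = 6.89e-07). Summed over libraries, 279 counts at 100 µM against 5 in the controls gave a ratio of 58.7. Its exact 95% interval, from 24.8 to 182, covers counting error only and takes each count as a separate molecule. In the 9 libraries of the lower doses the level lay between 0 and 2.39 CPM, with 24 counts in all.

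The beta subunit has a pair of genes, AT1G55510 and DIN4 (AT3G13450). DIN4 was at 3.69, 2.88 and 2.16 CPM in the controls. At 100 µM it was at 20.1, 13.8 and 17.2 CPM. All libraries of this dose lay above all 12 others, the highest of which, at 1 µM, had 6.86 CPM. DIN4 passed the filter only through this dose, so this order was partly set by the filter. The 15.9% of all genes tested that show it are no background for DIN4. The log2 change was 2.52 ± 0.43 (edgeR adjusted p = 0.000227). AT1G55510 had 0, 0 and 1 counts in the controls and 3 counts in all over the 9 lower-dose libraries. At 100 µM it had 13, 3 and 7 counts, a level of 8.44, 2.95 and 2.41 CPM. These few counts again came from every library of the top dose. The ratio to the lower doses, 23 counts against 3, was 33.2. Its exact 95% interval, from 10.0 to 173, is for counting error only and also takes each count as a separate molecule. The filter on low counts removed this gene, and without the filter its edgeR adjusted p against the controls was 0.0104, from a fit in which its log2 change rests on 1 control count.

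DIN4 supplied 70.5%, 82.4% and 87.7% of the beta subunit counts in the 3 libraries of 100 µM, and AT1G55510 the rest. Over the 9 lower-dose libraries the share of DIN4 ran from 90.9% to 100%. The share was 80.2% ± 8.84 (SD, n = 3) against 97.0% ± 4.55 (SD, n = 9), lower in 3 of 3 libraries (exact two-sided permutation p = 0.00455, the smallest that 3 against 9 can give). Against the 3 controls, at 93.3% ± 11.5, the exact p was 0.3, where 0.1 is the smallest that 3 against 3 allow. The share is made from the same counts as the changes of both genes above, so it is no separate evidence. DIN4 passed the filter on low counts only through 100 µM, and AT1G55510 did not pass it. Each of these shares rests on few counts, 5 to 8 per control and 1 to 11 per lower-dose library. The 95% Wilson interval was 37.6% to 96.4% in control replicate 3 (4 counts of 5), 20.7% to 100% in 10 µM replicate 1 (1 of 1) and 56.5% to 100% in 10 µM replicate 3 (5 of 5), and those of the 100 µM libraries were 55.8% to 81.8%, 59.0% to 93.8% and 76.8% to 93.9%. A matching share for the alpha subunit could not be formed, because AT5G09300 is not analysed here. The last 500 bases of both beta subunit transcripts align over 257 bases at 87.5% identity, and reads there could be split between them. AT1G55510 also overlaps TBP2 (AT1G55520), a TATA-binding protein gene, by 278 bases of its 3' end, on the opposite strand. TBP2 rose as well, to a mean of 6.31 CPM from 1.91 CPM (edgeR adjusted p = 0.00934), and whether counting used strand is not given in the sources used here, so reads of the 2 genes may not be separable.

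DIN3 (AT3G06850), the acyltransferase of the complex, had 20.3, 57.1 and 40.5 CPM in the controls. In the top dose it had 53.9, 154 and 195 CPM. Replicate 1 again lay inside the control range and the other libraries above it. Its log2 change was 1.79 ± 0.37 (edgeR adjusted p = 0.00113). Over the 9 lower-dose libraries DIN3 ranged from 27.5 to 60.4 CPM with a median of 38.4 CPM.

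IVD (AT3G45300), isovaleryl-CoA dehydrogenase, which acts on the acyl-CoA made from leucine, did not pass the test at 100 µM. Its controls were at 61.4, 90.6 and 71.3 CPM. Under 100 µM it was at 14.3, 172 and 248 CPM. Replicate 1 lay below every other library of the series and replicates 2 and 3 lay above every library of the other groups. This arrangement was found in 1.24% of all genes tested. It was defined from the values of IVD itself, so the share does not measure how unusual IVD is. Replicate 1 had 22 counts of IVD, replicate 2 had 175 and replicate 3 had 723. The log2 change was 0.98 ± 0.52 (edgeR adjusted p = 0.159), and 1.50 without replicate 1 of 100 µM (adjusted p = 2.55e-05).

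Methylcrotonoyl-CoA carboxylase, the next leucine-specific step, needs a biotin-carrying subunit (MCCA, AT1G03090) and a beta subunit (MCCB, AT4G34030). The control libraries had 68.3, 68.1 and 67.5 CPM of MCCA. At 100 µM there were 156, 185 and 193 CPM of it. Every library of the top dose, replicate 1 included, lay above all 12 others, as for 15.9% of all genes tested. The log2 change was 1.39 ± 0.16 (edgeR adjusted p = 3.66e-06), the smallest standard error of the 8 genes. MCCB stood at 60.0, 66.9 and 67.5 CPM in the controls. At 100 µM it was at 24.7, 99.2 and 192 CPM. Its replicate 1 fell below all 12 other libraries, as that of IVD did, so the genes for both subunits of one enzyme differed in that library. The log2 change of MCCB was 0.73 ± 0.40 (edgeR adjusted p = 0.174), and 1.19 without replicate 1 (adjusted p = 0.000195). Without replicate 3 of 100 µM it was -0.12 (adjusted p = 0.821), and that of IVD was 0.27 (adjusted p = 0.74). MCCA overlaps AT1G03100 by 300 bases at its 3' end, on the opposite strand, and that gene is not analysed here.

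ETFQO (AT2G43400), the ubiquinone oxidoreductase that passes electrons from these dehydrogenases to the respiratory chain, was at 0.461, 2.31 and 4.86 CPM in the controls, from 14 counts in all. At 100 µM it was at 18.8, 6.88 and 17.9 CPM, from 88 counts. All 3 libraries of the top dose exceeded the other 12, and replicate 2 was the lowest of the 3. ETFQO passed the filter only through this dose, so this order was partly set by the filter. The 15.9% of all genes tested that show it are no background for ETFQO. Its log2 change was 2.59 ± 0.54 (edgeR adjusted p = 0.0013), and it was 2.0 without control replicate 1 (adjusted p = 0.00934) and 3.46 without control replicate 3 (adjusted p = 0.000901). Its 3' end overlaps FPA (AT2G43410) by 46 bases on the opposite strand, a gene that fell at this dose, to a mean of 2.55 CPM from 10.7 CPM (edgeR adjusted p = 0.00192).

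The 3 libraries of 100 µM differed among themselves for some genes and not for others. In replicate 1, IVD stood at 0.0679 of the mean of replicates 2 and 3, MCCB at 0.169, BCAT2 at 0.24 and DIN3 at 0.309. MCCA (0.824), AT1G21400 (1.07), DIN4 (1.30), ETFQO (1.52) and AT1G55510 (3.15) were near or above that mean in replicate 1. Genes for parts of one complex fell on both sides, DIN3 on one and both decarboxylase subunits on the other. Of the 8 genes tested, 3 lay in replicate 1 far below both other replicates (under 1/3 of each) (BCAT2, IVD and MCCB), as did 9.04% of all genes. The genes that held their rise in replicate 1 were, MCCA apart, those with few counts in the controls. Among them, AT1G21400, DIN4 and ETFQO passed the filter only through the 3 libraries of 100 µM, replicate 1 included. For these genes the link was partly set by the filter and carries no weight.

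**Figure D2:**
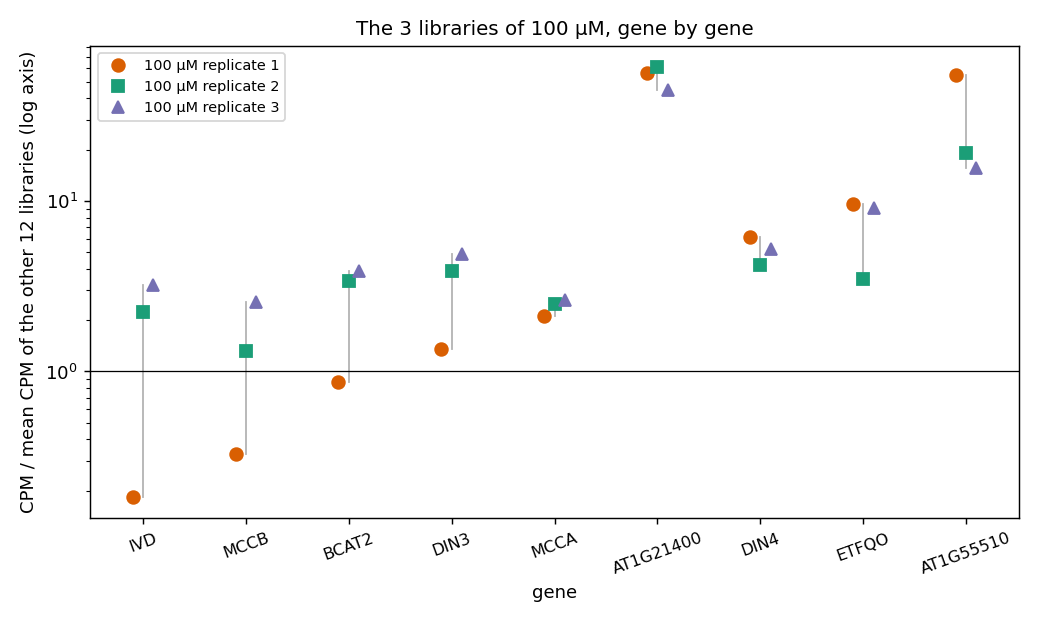
Level of each gene in the 3 libraries of 100 µM, as the ratio of its CPM to the mean of the other 12 libraries (log axis; the line at 1 marks that mean), with genes ordered by replicate 1 over the mean of replicates 2 and 3. For IVD the ratios were 0.184, 2.22 and 3.21, and for MCCA they were 2.11, 2.5 and 2.62.

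With replicate 1 of 100 µM left out, all 8 genes tested rose against the controls, with log2 changes of 1.84 for BCAT2, 2.16 for DIN3, 1.46 for MCCA, 5.8 for AT1G21400, 2.38 for DIN4 and 2.39 for ETFQO beside those of IVD and MCCB above. The edgeR adjusted p-values lay between 1.96e-07 and 0.0039. This fit called 3561 genes in either direction over the whole series, and the fit with all libraries 3392, which is 32.7% of those tested. AT1G21400, DIN4 and ETFQO, which passed the filter through 100 µM, carry no weight in this count. Replicate 1 is the library in which IVD and MCCB were low, so their rise without it is no separate support. BCAT2 and DIN3 also had their lowest value at 100 µM in replicate 1. Their larger changes without it follow from that choice of library. The 9 libraries of 0.1, 1 and 10 µM shared the dark step and the washes with 100 µM, and against them 100 µM was higher for AT1G21400 (5.64 ± 0.34), ETFQO (3.04 ± 0.39), DIN4 (2.49 ± 0.31), DIN3 (1.77 ± 0.27), BCAT2 (1.47 ± 0.28) and MCCA (1.30 ± 0.12). IVD (0.93 ± 0.40, edgeR adjusted p = 0.0687) and MCCB (0.49 ± 0.32, edgeR adjusted p = 0.224) did not pass. In this comparison 23.1% of all genes rose and 19.2% fell, 42.3% in all. A joint test of the 4 doses against the controls called 31.4% of all genes and the same 6 genes of the 8. The edgeR adjusted p was 0.286 for IVD and 0.316 for MCCB. Here and against the lower doses, AT1G21400, DIN4 and ETFQO again carry no weight as a count. Of the 5 genes that pass the filter without 100 µM, BCAT2, DIN3 and MCCA were called. Both comparisons use the same libraries of 100 µM, so they are not separate evidence.

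No gene of the group was called at 0.1, 1 or 10 µM against the controls, nor for these doses pooled, by edgeR, DESeq2 or limma-voom. At an unadjusted edgeR p under 0.05 there was 1 gene at 1 µM and 1 at 10 µM, MCCA both times, and 0 at 0.1 µM. Over all genes, edgeR called 0.183% at 1 µM (0.0482% higher and 0.135% lower), 0.00964% at 10 µM and 0% at 0.1 µM or for the pooled doses. The pooled comparison holds the dark step, the washes and the light regime, and its log2 changes ran from -0.45 ± 0.55 (ETFQO) to 0.24 ± 0.33 (MCCB). For DIN4, a gene named for its induction in the dark, the pooled change was 0.03 ± 0.46, and for DIN3 it was 0.03 ± 0.31. These values average over doses that differed in sign. DIN4 changed by 0.72 ± 0.50 at 1 µM and by -0.78 ± 0.53 at 10 µM, neither called. All 8 genes had positive fitted changes at 1 µM and negative ones at 10 µM. A pooled value near 0 thus does not show that each dose stayed there. 

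**Figure D3:**
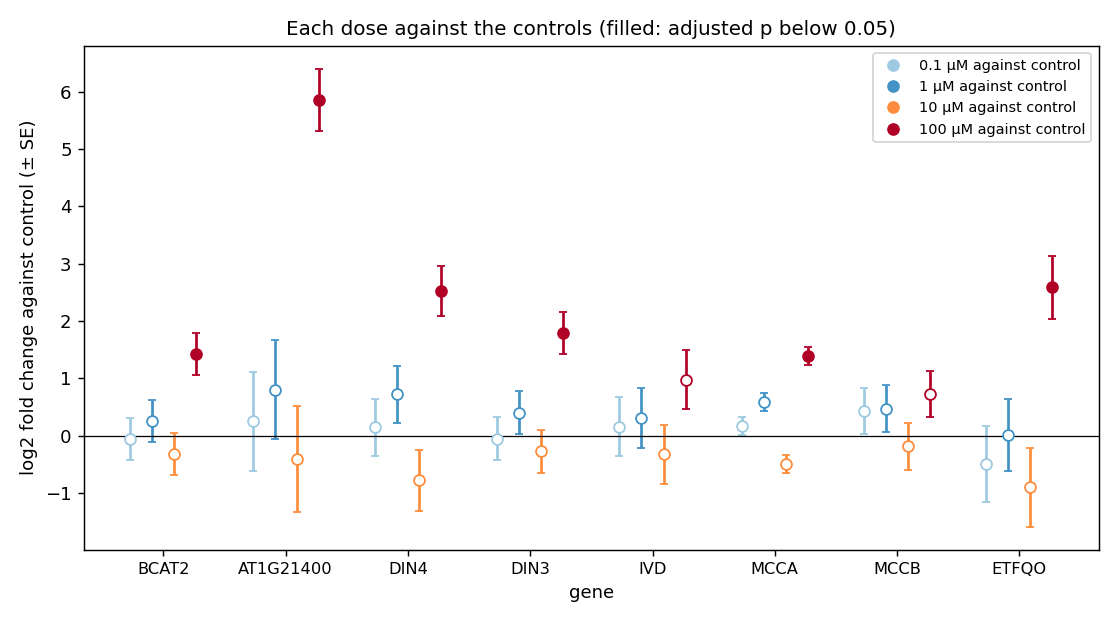
Log2 fold change (± SE) of the 8 genes tested at each dose against the controls; filled points passed an edgeR adjusted p of 0.05. The 4 comparisons share the control libraries. Filled points occur at 100 µM only. All 8 points at 10 µM lie below 0, from -0.90 to -0.19, and all 8 at 1 µM above 0, from 0.02 to 0.80.

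From 1 to 10 µM, MCCA fell and the other genes had lower fitted levels that did not pass the test. MCCA was at 102, 91.4 and 111 CPM at 1 µM. It was at 52.5, 52.6 and 41.0 CPM at 10 µM. The groups did not overlap, and the 3 controls lay between them. The log2 change was -1.08 ± 0.16 (n = 3 per group, edgeR adjusted p = 0.00438), where 0.318% of all genes fell and 0.569% rose, 0.887% in all. The 10 µM libraries, and control replicate 2, have a sample code with the digit 8, and the 1 µM libraries one with 7. With the digit as a term the change was -1.08, but the call was lost (adjusted p = 0.276), and after thinning to the smallest library it was -1.24 (adjusted p = 0.0944). Control replicate 2, of digit 8, had 68.1 CPM of MCCA and the controls of digit 7 had 68.3 and 67.5 CPM. This is 1 library and 1 gene. For BCAT2 the same library stood above the controls of digit 7 (205 against 90.9 and 135 CPM), and for MCCB between them (66.9 against 60.0 and 67.5 CPM). What goes with the digit was not tested.

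DIN4 at 10 µM was at 0.632, 3.02 and 1.11 CPM, and at 1 µM at 5.97, 6.86 and 3.20 CPM, with no overlap but only 16 and 26 counts in all (log2 change -1.50 ± 0.50, edgeR adjusted p = 0.208). The changes of the remaining 6 genes lay between -1.21 (AT1G21400) and -0.57 (BCAT2). The median was -0.80 over the 8 genes and -0.01 over all genes. In 6 of the 8 genes, BCAT2, DIN4, DIN3, IVD, MCCA and MCCB, every 10 µM library lay below every 1 µM library, as in 9.68% of all genes tested. The slope on log10 dose over 0.1, 1 and 10 µM was called for 0 of the 6 genes that could be tested, with 2 at an unadjusted p under 0.05 (MCCA and MCCB), and for 0% of all genes. The 7 root markers, all detected, summed to 173 to 245 CPM at 1 µM and 92.9 to 132 CPM at 10 µM. Of the 5 tested, 1 fell, the root aquaporin TIP2;3 (-1.73 ± 0.38, edgeR adjusted p = 0.038), and 0 rose. Their median log2 change was -0.97. BGLU21, which was not tested, went the other way, from a mean of 0.213 CPM at 1 µM to 1.26 CPM at 10 µM. Green tissue markers were at 29920 to 33370 CPM and 28010 to 29270 CPM. The part of tissue composition in the result was not tested.

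Other steps of branched-chain amino acid breakdown were read from a list of 10 genes, of which 6 could be tested. At 100 µM against the controls 1 rose and 0 fell, a share near the 18.1% that rose over all genes. The riser was BCAT1 (AT1G10060), a second mitochondrial aminotransferase, with a log2 change of 1.08 ± 0.37 (edgeR adjusted p = 0.0312) and libraries at 15.6, 50.1 and 65.3 CPM, replicate 1 lying below all 12 other libraries (16.6 to 34.8 CPM) and replicates 2 and 3 above them all, as for IVD. The lipoamide dehydrogenases of the complex, LPD1 (-0.17 ± 0.30) and LPD2 (-0.17 ± 0.15), which also serve other mitochondrial complexes, did not pass. Neither did the valine pathway enzymes CHY1 (-0.10 ± 0.18) and ALDH6B2 (0.53 ± 0.44). AT4G31810 (0.50 ± 0.54), which passed the filter only through the libraries of 100 µM, did not pass the test. The median of the 5 other genes was -0.10. ETFA and ETFB, the electron transfer flavoprotein itself, are not analysed here.

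The opposite pathway, synthesis of these amino acids, was read from a list of 18 genes, of which 15 were tested. Of these 2 rose and 3 fell at 100 µM, close to the 32.7% called over all genes. The list takes in BCAT4 and several isopropylmalate isomerase and dehydrogenase genes, and not all of them need serve this pathway. Without AT2G31810, which passed the filter only through the libraries of 100 µM, 14 genes had a median of -0.30. AT2G43090, a small subunit of isopropylmalate isomerase in leucine synthesis, rose by 3.98 ± 0.31 on the log2 scale (edgeR adjusted p = 5.89e-08), from 6.4 ± 2.06 to 100.0 ± 20.3 CPM (SD, n = 3). AT2G31810, a regulatory subunit of acetohydroxyacid synthase, rose by 2.64 ± 0.54 (edgeR adjusted p = 0.00104). Ketol-acid reductoisomerase (AT3G58610, -0.65 ± 0.15), dihydroxyacid dehydratase (DHAD, -0.74 ± 0.21) and the isopropylmalate dehydrogenase AT1G31180 (-0.83 ± 0.30) fell. 

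Breakdown genes of other amino acids had 9 of 11 tested, of which 6 rose and 1 fell at 100 µM, where 18.1% of all genes rose and 14.6% fell. HGO passed the filter only through the libraries of 100 µM, and of the 8 others 5 rose and 1 fell, with a median log2 change of 0.92. Over all genes that pass without 100 µM, 13.4% rose and 15.8% fell. HGO (AT5G54080), homogentisate dioxygenase of tyrosine breakdown, was at 27.2, 35.4 and 36.4 CPM against 2.31 CPM or less in the other 12 libraries (4.35 ± 0.45, edgeR adjusted p = 1.07e-06). THA1, threonine aldolase (2.18 ± 0.24), LKR/SDH of lysine breakdown (1.92 ± 0.50), MGL, methionine gamma-lyase (1.48 ± 0.25), HPD of tyrosine breakdown (1.36 ± 0.21) and P5CDH of proline breakdown (0.47 ± 0.16) rose too. The proline dehydrogenase gene PDH2 fell (-1.23 ± 0.31), and its paralogue PDH1 did not pass (-0.14 ± 0.16). For THA1, MGL, HPD and P5CDH all 3 libraries of 100 µM, replicate 1 included, lay above the other 12, as for 15.9% of all genes tested. Those of LKR/SDH did so too, but replicate 2 only just, at 6.88 CPM against 6.86 CPM at most elsewhere. From 1 to 10 µM none of the 9 was called by edgeR, and their median change was -0.66.

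**Figure D4:**
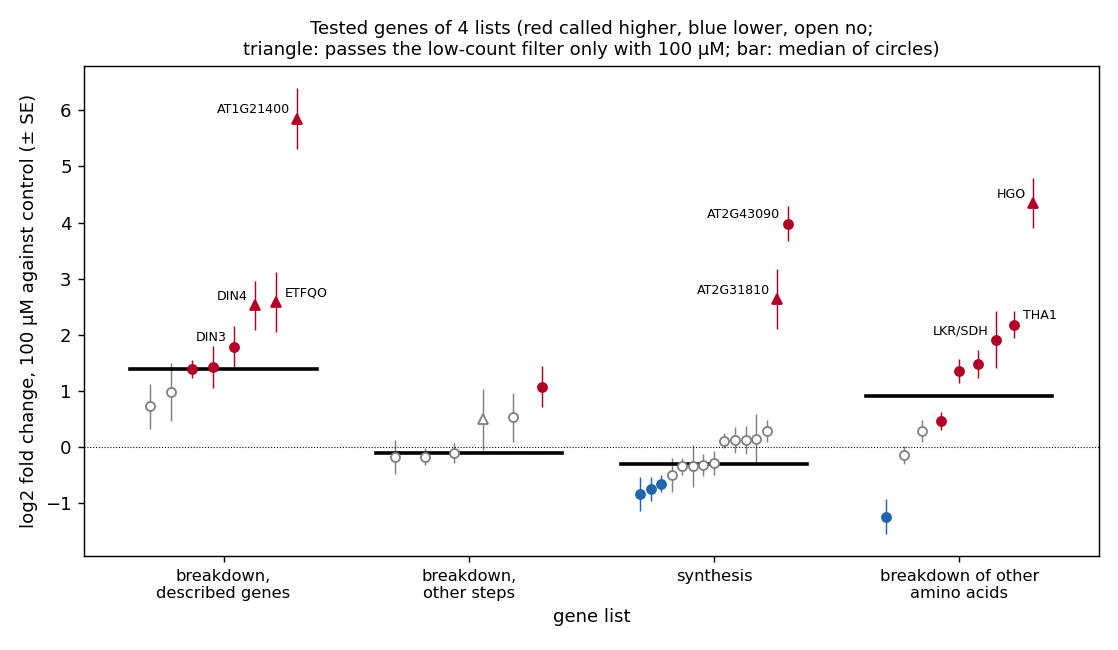
Log2 fold change (± SE) at 100 µM against the controls for the tested genes of 4 lists, where red points rose, blue points fell and open points did not pass the edgeR test. Triangles are genes that pass the low-count filter only through 100 µM, and bars are medians of the circles: 1.39 for the described genes, -0.10 for other steps of their pathway, -0.30 for synthesis and 0.92 for breakdown of other amino acids.

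The genes with the most similar course over the 15 libraries differed between the steps. Likeness was the root mean square difference of log2(CPM + 1), centred on each gene's mean, over all genes tested. Nearest to BCAT2 were the NAC transcription factor gene AT3G15500 (0.24), DIN3 (0.24) and the beta-galactosidase gene BGAL1 (0.26), each with its lowest value among the 3 libraries of the top dose in replicate 1. Nearest to DIN4 were ATPC1, the gamma subunit of the chloroplast ATP synthase (0.34), the protein kinase gene D6PK (0.36) and AT4G17085 (0.37). Nearest to IVD were AT4G35750 (0.31), BPC4 (0.34) and ATCS (AT2G44350), a citrate synthase gene (0.34), the last at 10.4, 78.6 and 85.9 CPM in replicates 1, 2 and 3 of 100 µM.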

How the data were processed

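RNA of 15 seedling libraries was read by bulk MARS-seq. Per the submitters' processing notes, reads went through bcl2fastq 2.17.1.14, cutadapt 1.8.3, STAR, HTSeq and DESeq2; the genome build, annotation and strand setting are not given in the labels. The deposited values used are the authors' raw counts per gene, made without filtering on molecular identifiers, so amplification copies are included. Intervals from counts take each count as a separate molecule and cover counting error only. With copies included they can be too narrow even for that. The other 30 deposited columns of per-sample values, normalised or regularised, were not used. Library totals, 834190 to 4554702 counts, set the precision.

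Tests were edgeR 4.0.16 in R 4.3.3: TMM factors, filterByExpr, a group term over all 15 libraries, a quasi-likelihood test, Benjamini-Hochberg adjustment over all genes and a threshold of 0.05. The script was tested on simulated data. Slopes used the 9 lower-dose libraries. The share of DIN4 counts used an exact permutation test. Alternatives were DESeq2 1.42.0, limma-voom 3.58.1, other scaling factors, no filter, a replicate block, the code digit, fewer groups, thinning and leaving out libraries. Overlaps and alignments of 3' ends (last 500 bases, blastn 2.17.0) and promoters came from TAIR10.1, matched by locus tag. The genes and lists were chosen with earlier results of these data known. Named genes are the described genes, list genes called at 100 µM with some that were not, and the 3 nearest genes of BCAT2, DIN4 and IVD. Between replicates of a group the chi-square per degree of freedom was 3.22 or more for all pairs. It takes each count as a separate molecule. With amplification copies included, it cannot show that replicates differed beyond sampling noise.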

Additional observations from a re-analysis of the deposited data

How the results depend on the processing

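The number of the 8 genes called at 100 µM, 6 in both comparisons, was 5 to 8 over the alternatives and 6 to 8 when 1 library was left out. It was 8 without replicate 1 of that dose, where 3561 genes in all were called against the controls. At 0.1, 1 and 10 µM against the controls, for the pooled doses and for the slope it stayed at 0 under every alternative, also when 1 library was left out (0 to 0). From 1 to 10 µM it was 1, and 1 whichever library was left out, but 0 with the code digit or after thinning, 2 without the 100 µM libraries (MCCB added, -0.66, adjusted p = 0.0288) and 3 with only both groups in the fit. The lower share of DIN4 at 100 µM, by 16.8 percentage points, had exact p = 0.3 against the controls (-13.2) and p = 0.1 against 10 µM (-19.8), where 0.1 is the smallest possible; leaving out a library gave -20.6 to -11.9. The cause of these shifts was not tested. Over all genes, calls at 100 µM against the controls were 3392, but 1341 after thinning and 2223 with only both groups; against the lower doses 4387, but 1970 after thinning; at 1 µM 19, but 1 to 76; at 10 µM 1, but 0 to 4; from 1 to 10 µM 92, but 1 to 270; for the pooled doses 0, but up to 6; and for the slope 0, but up to 18. Same-numbered replicates share only a number (correlations of their deviations from -0.137 to 0.268, and 8 of 15 libraries closest to their own number); with the replicate block 6 genes were called in each comparison of 100 µM, 1 from 1 to 10 µM and 0 elsewhere. Planned shares for the alpha subunit could not be computed, and with the code digit 100 µM could not be fitted. Depth limits AT1G55510, AT1G21400, ETFQO and DIN4, which had 0 to 11 counts in each library below 100 µM.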

Other observations

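Other genes also divided the libraries of 100 µM. Replicate 1 was at 15.6 CPM for BCAT1 and 17.5 CPM for ALDH6B2, the methylmalonate semialdehyde dehydrogenase, while replicates 2 and 3 were at 50.1 and 65.3 CPM and at 62.9 and 122 CPM. LPD1, the lipoamide dehydrogenase, was at 19.5 CPM in replicate 1 and at 58.9 and 62.9 CPM in the others, against 35.2 to 60.0 CPM in the other 12 libraries. Among green tissue markers, the Rubisco small subunit gene RBCS1A was at 5304 CPM in replicate 1 and at 16980 and 17230 CPM in replicates 2 and 3, and GAPA of the Calvin cycle at 172, 418 and 392 CPM. RCA, the Rubisco activase gene, was at 746, 797 and 839 CPM. The root beta-glucosidase gene PYK10 was at 44.8, 36.3 and 31.3 CPM, above all other libraries, which reached 9.72 CPM at most.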
